A study of Homo sapiens with 12 samples.

Results

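The adhesion molecules described here are 6 members of the immunoglobulin superfamily, ICAM1, VCAM1, NCAM1, L1CAM, ALCAM and MCAM. They were chosen by symbol, and each symbol was found as 1 row among the 27685 genes of the table. All 6 passed the filter on low counts, which left 15769 genes for testing. The study measured RNA in U251, a human glioblastoma cell line, and its title names the long noncoding RNA INCA1 as a regulator of interferon signalling. Cells that stably expressed a short hairpin RNA were given interferon gamma (IFNγ) or left untreated. Libraries were made with a stranded, poly(A)-selecting kit from total RNA.

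The 4 groups held 3 libraries each. They were cells with the INCA1 hairpin given IFNγ for 24 hours (shINCA1 with IFNγ), untreated cells with the INCA1 hairpin (shINCA1 untreated), cells with a control hairpin given IFNγ for 24 hours (shCTRL with IFNγ) and untreated cells with the control hairpin (shCTRL untreated). All 4 groups were U251 cells at passages 14 to 18 that carried a hairpin, so no group was free of one. The labels name 1 hairpin of each kind and do not say whether a line was a pool or a clone, so an effect of the hairpin and a difference between 2 cell lines cannot be told apart. They do not say either that replicates were separate cultures, so p-values measure only the spread between these libraries, which may be technical. A row with the symbol INCA1 was not taken as the targeted RNA, because the symbol is also that of a protein-coding gene, and the knockdown itself was not checked here.

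These receptors are type I membrane proteins, or in some isoforms of NCAM1 lipid-anchored ones, whose immunoglobulin domains bind partners on other cells. ICAM1 and VCAM1 hold leukocytes on inflamed endothelium and on other cells by binding their integrins, and cytokines induce both genes through NF-κB, IRF1 and other factors. NCAM1 and L1CAM bind like molecules on neighbouring neural cells and guide neurite growth, and L1CAM is also found on invasive tumour cells. ALCAM binds itself and CD6 of T cells, and MCAM (CD146) is an adhesion receptor of endothelium, pericytes and melanoma.

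The libraries held 46525032 to 66242859 estimated counts over 16724 to 17216 genes above 0. Levels are given as CPM, the counts of a gene relative to a library total adjusted by TMM factors. Replicates correlated at 0.983 to 0.987 on the log CPM scale. Of 8 glial and glioma markers, 6, 6, 7 and 8 reached 1 CPM in shINCA1 with IFNγ, shINCA1 untreated, shCTRL with IFNγ and shCTRL untreated. GFAP, the astrocyte filament gene, averaged 0.476, 0.348, 0.989 and 1.59 CPM in these groups. Other glial markers differed between the lines: NES averaged 33.5 CPM in shINCA1 untreated and 136.7 CPM in shCTRL untreated, FABP7 averaged 19.0 and 79.8 CPM in these groups, and CD44 averaged 883 and 656 CPM. The endothelial genes PECAM1 and CLDN5 and the haematopoietic genes CD3E and AIF1 were at or near 0 in every group. Other genes of these lists were not: in the same group order KDR averaged 15.0, 7.82, 9.14 and 6.55 CPM, and CD68 averaged 10.3, 9.46, 13.7 and 12.6 CPM, while VWF and ESAM had group means of 0.694 to 1.74 CPM. CDH5, also endothelial, averaged 0.351, 0.768, 0 and 0.0331 CPM in this order. Among epithelial markers EPCAM and CDH1 were near 0 while the list, mostly KRT18, summed to 240.9 to 270.2 CPM over shINCA1 libraries, against 90.4 to 96.6 CPM over shCTRL libraries. The part of these markers in the members' differences was not tested.

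IFNγ lowered MCAM in both lines and raised ICAM1 and VCAM1 in shCTRL cells. In shINCA1 cells MCAM was the 1 member lowered, where 2.95% of all tested genes were, and 9.08% of genes were called in either direction. No member was raised there by edgeR's quasi-likelihood test, where 6.13% of tested genes were. At an unadjusted p under 0.05 the count raised was 1, and it was 0 by DESeq2 and by limma-voom after adjustment. In shCTRL cells 2 of the 6 members were raised, where 9.72% of tested genes were, and 1 was lowered, where 7.51% were (17.2% in either direction). Between untreated lines shINCA1 had 1 member raised, L1CAM, and 4 lowered, where 27.4% and 29.5% of tested genes were (56.9% in either direction). With IFNγ the shINCA1 line had 1 raised and 5 lowered, where 28.7% and 30.2% of tested genes were (58.9% in either direction). The members counted in shCTRL and between the lines include ICAM1 or VCAM1, which passed the filter on low counts through shCTRL groups alone. In bulk RNA, fewer cells that express a gene and less RNA per cell cannot be told apart. A gene was called at a Benjamini-Hochberg adjusted p under 0.05 over all tested genes. The split of all genes moved with the scaling: in shINCA1 cells 967 genes rose and 465 fell with TMM, against 815 and 733 with upper-quartile factors. In shCTRL cells 1532 rose and 1184 fell with TMM, against 1201 and 1970 with upper-quartile factors. The counts over the 6 members were the same under either scaling.

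**Figure D1:**
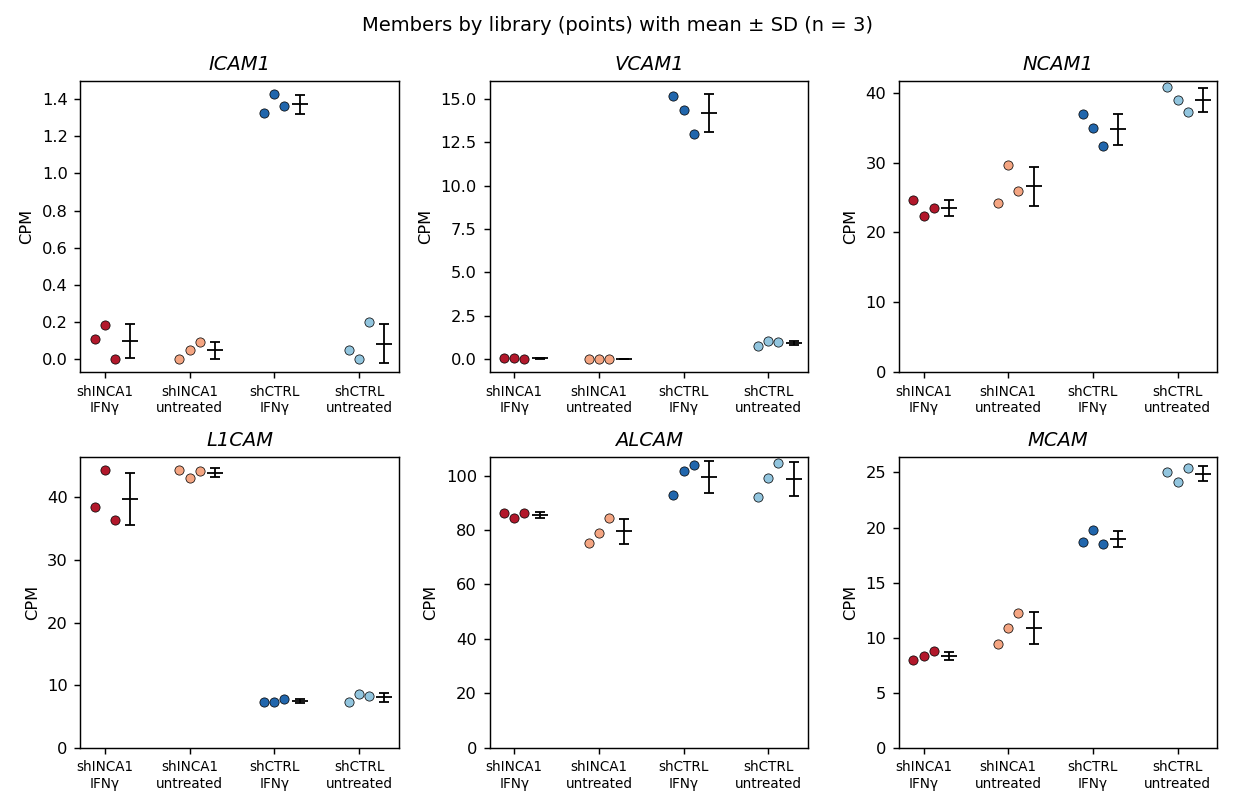
Levels of the 6 members in CPM, 1 panel per gene, with 1 point per library and the mean ± SD of 3 libraries as a bar; the vertical axes differ between genes. VCAM1 stands at 13.0 to 15.1 CPM in shCTRL with IFNγ and at 0 to 0.0612 CPM in both shINCA1 groups, while L1CAM stands at 36.4 to 44.4 CPM in shINCA1 and 7.30 to 8.59 CPM in shCTRL.

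ICAM1 and VCAM1 are the members with known cytokine-driven promoters, and the 200 bases before each start are shown because they hold the letters of cytokine motifs. The sequences are RefSeq's, on GRCh38.p14, at chr19:10270920-10271119 on the plus strand for ICAM1 and chr1:100719542-100719741 on the plus strand for VCAM1. Capitals mark the motif matches.
ICAM1: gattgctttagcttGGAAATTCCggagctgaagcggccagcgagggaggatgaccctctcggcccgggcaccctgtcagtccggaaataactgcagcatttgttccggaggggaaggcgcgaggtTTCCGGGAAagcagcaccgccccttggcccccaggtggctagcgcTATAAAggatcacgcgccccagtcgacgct
VCAM1: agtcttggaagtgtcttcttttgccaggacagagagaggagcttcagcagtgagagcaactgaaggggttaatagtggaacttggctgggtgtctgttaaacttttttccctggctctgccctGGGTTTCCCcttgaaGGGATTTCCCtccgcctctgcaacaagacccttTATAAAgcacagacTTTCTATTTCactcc

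In ICAM1 the capitals are, from the 5′ end, an NF-κB consensus match at -186 to -178, a GAS element (TTCNNNGAA) at -75 to -67 and a TATA box (TATAAA) at -30 to -25, counted from the start site. In VCAM1 they are an NF-κB match at -77 to -69, overlapping NF-κB matches from -62 to -53, a TATA box at -29 to -24 and, on the minus strand, an IRF element (GAAA, any 2 bases, GAAA) at -15 to -6. Windows of 250 bases before and 50 after each start were searched on both strands, except that the TATA box was searched on the gene's strand. Of 35116 RefSeq promoter windows, 7.66% held the GAS letters, 3.57% the IRF letters, 15.9% the NF-κB consensus and 7.33% the TATA box. Windows were found for 5 of the 6 members, all but NCAM1. Those of L1CAM and ALCAM held none of the 4 motifs, and that of MCAM held 1 NF-κB match, at 33 to 41.

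VCAM1, the ligand of integrin α4β1 on lymphocytes and monocytes, had the widest range of the members between groups as a ratio of levels. In shINCA1 cells VCAM1 was at the edge of detection. The libraries with IFNγ held 3, 3 and 0 counts, and those without held 0, 0 and 0. Both groups lay at or under a floor of 3 counts per library, so no fold is given, and the test missed the threshold (edgeR adjusted p = 0.0826). The floor in untreated shINCA1 cells was 0.0487 CPM. Floors and count intervals cover counting error only, and the intervals take each count as 1 read, which the uneven low values of the table leave in doubt.

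In shCTRL cells VCAM1 had 15.1, 14.4 and 13.0 CPM with IFNγ, against 0.762, 1.04 and 0.953 CPM untreated. The groups stood far apart, at means of 14.2 ± 1.10 and 0.918 ± 0.142 CPM (SD, n = 3 each). IFNγ raised VCAM1 by 3.95 ± 0.21 (log2, SE), or 15.5-fold (edgeR quasi-likelihood test, adjusted p = 4.67e-07).

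Between untreated lines VCAM1 held 0 counts in all 3 shINCA1 libraries, against 46, 49 and 53 counts in the shCTRL libraries. Taking the floor for shINCA1, its level was at least 18.9-fold lower in shINCA1 (edgeR adjusted p = 1.20e-06). With IFNγ the 3 shINCA1 libraries held 3, 3 and 0 counts, against 730, 917 and 781 counts in shCTRL. On these few shINCA1 counts the shCTRL level was 377 times that of shINCA1, with a 95% exact count interval of 173 to 1028 (edgeR adjusted p = 9.30e-09). VCAM1 passed the filter on low counts through the shCTRL groups alone. Its calls between the lines therefore compare groups that let it pass with groups at or under the floor.

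ICAM1, the ligand of the leukocyte integrins αLβ2 and αMβ2, was scarce in every group. It passed the filter on low counts through shCTRL with IFNγ alone. Its calls therefore compare the group that let it pass with groups of few counts. The stricter filter among the alternatives, of 5 CPM, left ICAM1 out and could not check it. In shINCA1 cells ICAM1 had 6, 9 and 0 counts with IFNγ, against 0, 3 and 6 counts untreated. These groups overlapped, and the ratio of pooled counts, scaled for depth, was 1.92 (95% exact count interval 0.788 to 4.98, edgeR adjusted p = 0.758).

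ICAM1 had 1.33, 1.43 and 1.36 CPM in shCTRL with IFNγ, from 64, 91 and 82 counts. In shCTRL untreated it had 0.0497, 0 and 0.198 CPM, from 3, 0 and 11 counts. All 3 treated libraries lay above all 3 untreated ones. The rise was 3.99 ± 0.94 (log2, SE), or 15.8-fold, with means of 1.37 ± 0.0499 and 0.0825 ± 0.103 CPM (edgeR adjusted p = 0.0117). Leaving out single libraries gave log2 values of 3.45 to 5.54, the highest without the third shCTRL untreated library, which held 11 of the 14 counts. Without the first shCTRL untreated library the value was 3.69 and the adjusted p was 0.0550, in a range of 3.07e-04 to 0.0550 over the alternatives run.

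Between untreated lines ICAM1 overlapped, with 0, 3 and 6 counts in shINCA1 and 3, 0 and 11 in shCTRL. The ratio of shINCA1 over shCTRL was 0.567 (95% exact count interval 0.216 to 1.41, edgeR adjusted p = 0.591). With IFNγ the lines did not overlap, and ICAM1 was 14.2-fold lower in shINCA1, a log2 difference of -3.83 ± 0.94 (SE; edgeR adjusted p = 0.00385). Leaving out single libraries gave -4.63 to -3.25, the lowest without the second shINCA1 library with IFNγ and the highest without the third, and the call was kept each time. ICAM1 shares 815 exonic bases with ICAM4-AS1 and 61 with LIMASI on the opposite strand in GENCODE, and no source used here says whether counting used strand.

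**Figure D2:**
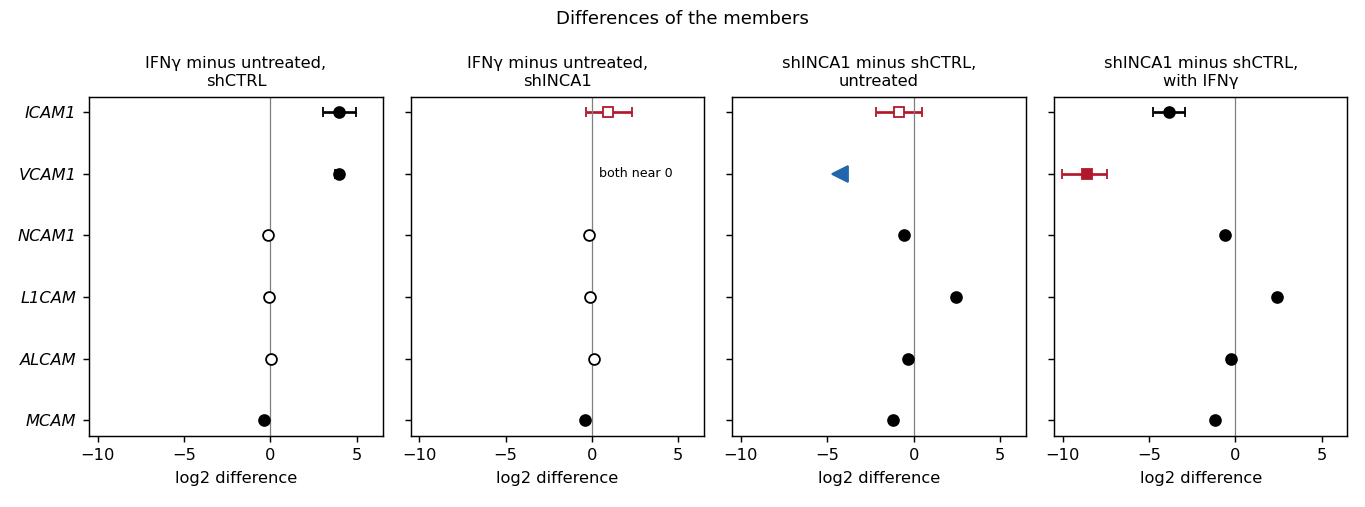
Differences of the 6 members on the log2 scale in the 4 comparisons of groups. Black circles are fitted log2 differences ± SE, filled where called. Red squares are log2 ratios of pooled counts with 95% exact intervals, and a blue triangle is a bound against a group at 0. ICAM1 and VCAM1 lie near 4 for IFNγ in shCTRL, and L1CAM lies at 2.45 and 2.41 between the lines.

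L1CAM, a neural receptor that binds itself, integrins and neuropilin 1, was the 1 member higher in shINCA1 than in shCTRL. Untreated, it had 44.4, 43.1 and 44.2 CPM in shINCA1, against 7.31, 8.59 and 8.22 CPM in shCTRL. With IFNγ it had 38.5, 44.4 and 36.4 CPM in shINCA1, against 7.30, 7.34 and 7.79 CPM in shCTRL. Every shINCA1 library lay above every shCTRL library. The log2 differences were 2.45 ± 0.08 untreated, or 5.47-fold (edgeR adjusted p = 2.47e-10), and 2.41 ± 0.08 with IFNγ, or 5.32-fold (edgeR adjusted p = 3.09e-10).

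L1CAM did not pass the test for IFNγ in either line. The log2 difference was -0.14 ± 0.07 in shINCA1 (approximate 95% interval -0.29 to 0.00, edgeR adjusted p = 0.331). In shCTRL it was -0.10 ± 0.08 (-0.26 to 0.06, edgeR adjusted p = 0.468). Treated and untreated libraries overlapped in both lines. L1CAM lies on chromosome X and shares 359 exonic bases with L1CAM-AS1 on the opposite strand in GENCODE. It also shares 439 exonic bases with a protein-coding gene without a symbol on the same strand, which strand cannot separate. The 20 nearest tested genes differed between the untreated lines by a median of 0.11 on the log2 scale.

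NCAM1, the neural cell adhesion molecule that carries polysialic acid, was lower in shINCA1. Untreated, it had 24.2, 29.7 and 25.9 CPM in shINCA1, against 40.8, 39.0 and 37.3 CPM in shCTRL. With IFNγ it had 24.7, 22.3 and 23.6 CPM in shINCA1, against 36.9, 35.0 and 32.5 CPM in shCTRL. The lines did not overlap in either state. The log2 difference of NCAM1 was -0.55 ± 0.08 untreated (SE; edgeR adjusted p = 5.52e-05) and -0.56 ± 0.08 with IFNγ (edgeR adjusted p = 4.63e-05). Its 20 nearest tested genes on chromosome 11 had a median of -0.24 between untreated lines, and NCAM1 less the median of its own comparison was -0.31 untreated and -0.37 with IFNγ, values with no test that were added after seeing the data.

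With IFNγ NCAM1 differed by -0.18 ± 0.08 in shINCA1 (edgeR adjusted p = 0.218), where the treated and untreated libraries overlapped. In shCTRL it differed by -0.17 ± 0.08 (edgeR adjusted p = 0.175), and there all 3 treated libraries lay below all 3 untreated ones. Neither value passed the test. NCAM1 shares 613 exonic bases with its antisense gene NCAM1-AS1 in GENCODE.

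MCAM fell with IFNγ in both lines and was lower in shINCA1 in both states. In shINCA1 it had 7.97, 8.30 and 8.76 CPM with IFNγ, against 9.39, 10.9 and 12.3 CPM untreated. In shCTRL it had 18.7, 19.7 and 18.5 CPM with IFNγ, against 25.1, 24.1 and 25.4 CPM untreated. None of the 4 groups overlapped another. IFNγ lowered MCAM by a log2 difference of -0.38 ± 0.08 in shINCA1 (SE; edgeR adjusted p = 0.0140) and -0.39 ± 0.08 in shCTRL (edgeR adjusted p = 0.00542).

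Between untreated lines MCAM averaged 10.8 ± 1.43 CPM in shINCA1 and 24.9 ± 0.681 CPM in shCTRL (SD, n = 3 each), a log2 difference of -1.20 ± 0.08 (edgeR adjusted p = 1.56e-07). With IFNγ it averaged 8.34 ± 0.398 CPM in shINCA1 and 19.0 ± 0.687 CPM in shCTRL, a log2 difference of -1.18 ± 0.08 (edgeR adjusted p = 1.89e-07). MCAM was thus 2.29-fold and 2.27-fold lower in shINCA1. CBL, which shares 509 exonic bases with MCAM on the opposite strand, did not pass in any comparison, with log2 differences between -0.07 and -0.02 in the 4 comparisons of groups (edgeR adjusted p 0.213 to 0.877 with the difference of responses). The fall with IFNγ in shINCA1 missed the threshold of 0.05 in 3 alternatives. It was -0.29 without the third untreated shINCA1 library (adjusted p = 0.0533), -0.35 without the first shINCA1 library with IFNγ (0.0626) and -0.38 in a fit of the 2 groups alone (0.0740), in a range of 9.51e-04 to 0.0740 over the alternatives run.

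ALCAM, the receptor of CD6 and of itself, had the highest level per length of the members and the smallest differences between the lines on the log2 scale. Untreated, it had 75.2, 79.0 and 84.3 CPM in shINCA1, against 92.2, 99.3 and 104.8 CPM in shCTRL. With IFNγ it had 86.3, 84.4 and 86.3 CPM in shINCA1, against 92.8, 101.8 and 103.9 CPM in shCTRL. Every shINCA1 library lay below the shCTRL libraries of its state. The log2 difference of ALCAM was -0.31 ± 0.06 untreated (SE; edgeR adjusted p = 5.24e-04) and -0.22 ± 0.06 with IFNγ (edgeR adjusted p = 0.00615). Less the median of its 20 nearest tested genes, the differences were -0.19 untreated and -0.058 with IFNγ, as values with no test.

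ALCAM did not pass the test for IFNγ. In shINCA1 the log2 difference was 0.11 ± 0.06 (approximate 95% interval 0.00 to 0.22, edgeR adjusted p = 0.349), and the treated libraries all lay above the untreated ones. In shCTRL it was 0.01 ± 0.06 (-0.10 to 0.12, edgeR adjusted p = 0.940), and the libraries overlapped.

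The test of whether the IFNγ response differed between the lines was passed by none of the 6 members, where 1.71% of all tested genes passed, 0.615% as raised and 1.1% as lowered. The count was 0 by edgeR, with 0 members at an unadjusted p under 0.05, and 0 by DESeq2 and by limma-voom, with 1 member each at an unadjusted p under 0.05. For MCAM the response in shINCA1 less that in shCTRL was 0.01 ± 0.12 on the log2 scale (approximate 95% interval -0.22 to 0.24, edgeR adjusted p = 0.999). It was -0.04 ± 0.11 for L1CAM (-0.25 to 0.17), -0.01 ± 0.11 for NCAM1 (-0.22 to 0.20) and 0.10 ± 0.08 for ALCAM (-0.06 to 0.25). For ICAM1 and VCAM1 no value is given, because shINCA1 counts lay near the floor, and the edgeR adjusted p was 0.509 for ICAM1 and 0.817 for VCAM1. A response in shCTRL that passes and one in shINCA1 that does not was therefore not shown to differ for these genes.

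Levels per kilobase of the canonical transcript in GENCODE put ALCAM first in every group, at 18.2, 16.9, 21.2 and 21.0 CPM per kb in shINCA1 with IFNγ, shINCA1 untreated, shCTRL with IFNγ and shCTRL untreated. The order below it differed. In shINCA1 with IFNγ it was L1CAM at 7.74, NCAM1 at 4.04, MCAM at 2.51, ICAM1 at 0.0324 and VCAM1 at 0.0122 CPM per kb. In shINCA1 untreated it was L1CAM at 8.55, NCAM1 at 4.57, MCAM at 3.26, ICAM1 at 0.0156 and VCAM1 at 0 CPM per kb. ICAM1 and VCAM1 overlapped in both, and other neighbours did not. In shCTRL with IFNγ it was NCAM1 at 5.98 and MCAM at 5.70, which overlapped, then VCAM1 at 4.57, L1CAM at 1.46 and ICAM1 at 0.463 CPM per kb. In shCTRL untreated it was MCAM at 7.47, NCAM1 at 6.70, L1CAM at 1.56, VCAM1 at 0.296 and ICAM1 at 0.0278 CPM per kb, with no overlap between neighbours.

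**Figure D3:**
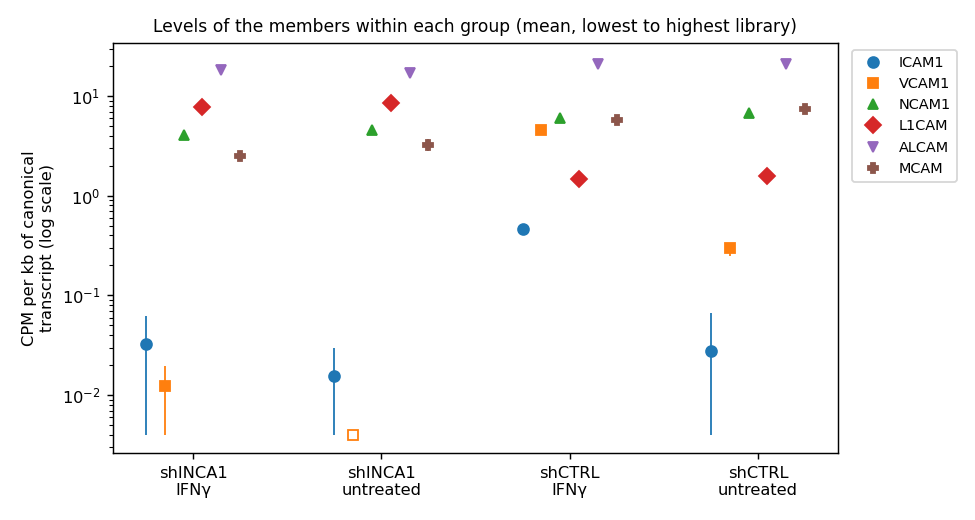
Levels of the 6 members in CPM per kilobase on a log axis, as the mean of 3 libraries with the lowest to the highest library; an open marker at the foot of the axis is a level of 0, and whiskers that reach 0 are cut there. ALCAM leads in every group, and L1CAM is second in shINCA1 and below MCAM and NCAM1 in shCTRL.

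Of 42 other immunoglobulin-type adhesion genes, 31 were tested. Over all tested genes the shares raised and lowered by IFNγ were 6.13% and 2.95% in shINCA1 and 9.72% and 7.51% in shCTRL, here and for the lists that follow. In shINCA1 cells IFNγ raised 5 of the 31 and lowered none by edgeR, with 3 lowered at an unadjusted p under 0.05 and 2 by DESeq2 and 1 by limma-voom after adjustment. CD47, the signal that holds back phagocytes, rose by 0.80 ± 0.05, PVR, the poliovirus receptor, by 0.46 ± 0.03 and NECTIN2 by 0.29 ± 0.04 (log2, SE). In shCTRL cells 5 rose and 3 fell. CD47 averaged 109.2 ± 1.23 CPM with IFNγ and 48.4 ± 2.68 CPM untreated there (SD, n = 3 each), a rise of 1.17 ± 0.05. PVR rose by 0.50 ± 0.03 and NECTIN2 by 0.39 ± 0.04. CEACAM1, whose reads can be split with close paralogs and whose value is therefore uncertain, rose by 5.01 ± 0.34 in shINCA1 and by 5.46 ± 0.33 in shCTRL. The list's median was 0.00 in shINCA1 and -0.01 in shCTRL, as was that of all tested genes.

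Between untreated lines 10 of the 31 were raised and 13 lowered in shINCA1, where 27.4% and 29.5% of all tested genes were, with a median of -0.10 against -0.01 over all tested genes. CADM1 and CADM4, synaptic and nerve adhesion molecules, rose by 1.23 ± 0.04 and 1.02 ± 0.06, and SDK1, a synaptic receptor, rose by 1.39 ± 0.08 (log2, SE). NRCAM, a relative of L1CAM, averaged 2.06 ± 0.174 CPM in shINCA1 and 8.33 ± 0.818 CPM in shCTRL, a log2 difference of -2.01 ± 0.12. With IFNγ 10 were raised and 15 lowered, where 28.7% and 30.2% of all tested genes were, with a median of -0.12 against 0.00 over all tested genes. CADM1 rose by 1.13 ± 0.04, CADM4 by 1.10 ± 0.06 and NPTN, neuroplastin, by 0.47 ± 0.03. NEGR1, a lipid-anchored neural adhesion molecule, averaged 0.557 ± 0.128 CPM in shINCA1 and 10.1 ± 1.43 CPM in shCTRL, a log2 difference of -4.17 ± 0.27. The nearest relatives, chosen after their values were seen, were ICAM2 and ICAM4 at 0 in all libraries, ICAM3 at group means of 2.49 to 2.67 CPM, and ICAM5 at 1.65 to 2.56 CPM.

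Of 25 receptors and ligands of the members, 17 were tested. The integrin chain ITGB2, the β chain of the ICAM1 receptors, had group means of 1.66 to 2.39 CPM and ITGA4, the α chain of the VCAM1 receptor, of 8.68 to 32.0 CPM. The α chains that pair with ITGB2 were lower, with ITGAX at 0 in all libraries and ITGAL and ITGAM at group means of at most 0.124 CPM, and CD6, the partner of ALCAM, was at 0 in all libraries. These 5 were chosen after their values were seen. In shINCA1 cells IFNγ raised 1 and lowered 2 of the 17, with a median of -0.04. NRP1, a partner of L1CAM, rose by 0.83 ± 0.19 (log2, SE), FGFR1, a partner of NCAM1 and L1CAM, fell by 0.30 ± 0.04 and WNT5A, a ligand of MCAM, fell by 0.43 ± 0.06. In shCTRL cells 3 rose and 2 fell, with a median of -0.08. NRP1 rose by 1.14 ± 0.19, the laminin chain LAMA4, a ligand of MCAM, rose by 0.24 ± 0.05, FGFR1 fell by 0.46 ± 0.04 and WNT5A fell by 0.42 ± 0.06. The call of NRP1 in shINCA1 was lost without the third untreated library (0.68, adjusted p = 0.0621) or the third with IFNγ (0.59, 0.0602), in a range of 0.00409 to 0.0621. That of LAMA4 in shCTRL was lost without the second library with IFNγ (0.18, adjusted p = 0.0570, in a range of 5.11e-05 to 0.0570).

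Between untreated lines 4 of the 17 were raised and 11 lowered in shINCA1, where 27.4% and 29.5% of all tested genes were, with a median of -0.35 against -0.01 over all tested genes. LAMA4 averaged 22.2 ± 0.929 CPM in shINCA1 and 223 ± 2.40 CPM in shCTRL, a log2 difference of -3.33 ± 0.06. ITGA4 averaged 8.94 ± 0.643 CPM in shINCA1 and 32.0 ± 0.407 CPM in shCTRL, a log2 difference of -1.84 ± 0.07. ITGB3, part of an integrin that binds L1CAM, averaged 1.25 ± 0.238 CPM in shINCA1 and 20.6 ± 0.986 CPM in shCTRL, a log2 difference of -4.04 ± 0.16. GFRA1, a co-receptor of GDNF that pairs with NCAM1, rose by 0.88 ± 0.04. With IFNγ 4 were raised and 11 lowered, where 28.7% and 30.2% were, with a median of -0.30 against 0.00. The log2 differences were -3.54 ± 0.06 for LAMA4, -1.88 ± 0.07 for ITGA4, -3.69 ± 0.16 for ITGB3 and -1.24 ± 0.06 for ITGAV, the partner chain of ITGB3.

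All 14 linkers between adhesion receptors and the cytoskeleton were tested. IFNγ raised 2 and lowered 3 in shINCA1 cells, with a median of -0.02, and raised 3 and lowered 4 in shCTRL cells, with a median of 0.00. MSN, moesin, which binds the tail of ICAM1 and VCAM1, rose by 0.21 ± 0.02 in shINCA1 and 0.17 ± 0.02 in shCTRL (log2, SE). Vinculin (VCL) differed by -0.11 ± 0.03 in shINCA1 and -0.20 ± 0.03 in shCTRL, and passed in both. In shINCA1 it missed the threshold without the first (-0.098, adjusted p = 0.0739) or the second (-0.11, 0.0526) library with IFNγ, in a range of 4.65e-05 to 0.0739. VCL also missed it there in a fit of the 2 groups alone (-0.12, edgeR adjusted p = 0.0587). Between untreated lines 3 were raised and 7 lowered in shINCA1 (27.4% and 29.5% of all tested genes), with a median of -0.10, and with IFNγ 2 and 7 (28.7% and 30.2% of all tested genes), with a median of -0.16. FYN, a kinase that couples to NCAM1, averaged 12.8 ± 1.54 CPM in shINCA1 untreated and 38.4 ± 0.567 CPM in shCTRL untreated, a log2 difference of -1.58 ± 0.10. With IFNγ the log2 difference of FYN was -1.32 ± 0.10. ANK2, an ankyrin that binds L1CAM, had a log2 difference of -1.28 ± 0.08 untreated. VCL had -0.64 ± 0.03 untreated and -0.55 ± 0.03 with IFNγ, and α-actinin-4 (ACTN4) had -0.60 ± 0.04 and -0.61 ± 0.04.

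The sheddases, their inhibitor TIMP3 and the polysialyltransferases made a list of 11 genes, of which 9 were tested. IFNγ lowered 2 in each line, with a median of -0.09 in shINCA1 and -0.06 in shCTRL. The log2 differences of TIMP3 were -0.44 ± 0.07 in shINCA1 and -0.38 ± 0.07 in shCTRL, and those of MMP14 were -0.22 ± 0.05 in shINCA1 and -0.17 ± 0.05 in shCTRL. MMP14 in shCTRL missed the threshold without the first untreated library or the third (adjusted p 0.0819 and 0.0842) and without the second with IFNγ or the third (0.0702 and 0.124), in a range of 0.00801 to 0.124. MMP14 also missed it there with no filter on low counts (edgeR adjusted p = 0.0566) and in a fit of the 2 groups alone (0.0663). None was raised by edgeR in either line, where 0 were at an unadjusted p under 0.05, nor by DESeq2 or limma-voom. Between untreated lines 1 was raised and 3 lowered in shINCA1 (27.4% and 29.5% of all tested genes), with a median of 0.05. MMP2, a gelatinase, rose by 0.87 ± 0.03, MMP14 fell by 0.37 ± 0.05 and ADAM17, a sheddase of VCAM1, fell by 0.19 ± 0.05. With IFNγ 2 were raised and 4 lowered (28.7% and 30.2% of all tested genes), with a median of -0.02. MMP2 rose by 0.86 ± 0.03 and ADAM10, a sheddase of L1CAM, by 0.60 ± 0.19. Without the second shCTRL library with IFNγ ADAM10 stood at 0.45 and was not called (adjusted p = 0.0724, in a range of 0.00426 to 0.0724).

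All 17 transcription factors and regulators that act on ICAM1 and VCAM1 were tested. IFNγ raised 7 and lowered none in shINCA1, with a median of 0.23 against 0.00 over all tested genes, and raised 8 and lowered none in shCTRL, with a median of 0.39 against -0.01. The counts lowered were 0 by edgeR, DESeq2 and limma-voom, and at an unadjusted p under 0.05 they were 0 in shINCA1 by all 3 and, in shCTRL, 1 by edgeR and 0 by the other 2. IRF1 rose by 5.75 ± 0.06 in shINCA1 and by 5.96 ± 0.06 in shCTRL (log2, SE). IRF9 rose by 3.10 ± 0.11 and STAT2 by 1.68 ± 0.07 in shINCA1, and by 2.57 ± 0.10 and 1.83 ± 0.07 in shCTRL.

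Between the lines, 3 of the 17 were raised and 7 lowered in shINCA1 untreated (27.4% and 29.5% of all tested genes), with a median of -0.36 against -0.01 over all tested genes, and 3 and 8 with IFNγ (28.7% and 30.2% of all tested genes), with a median of -0.21 against 0.00. IRF1 averaged 628 ± 6.65 CPM in shINCA1 with IFNγ and 936 ± 4.91 CPM in shCTRL with IFNγ, a log2 difference of -0.58 ± 0.05. Untreated, the log2 differences were -1.15 ± 0.11 for IRF9, -0.52 ± 0.07 for STAT2 and -0.40 ± 0.05 for SP1.

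**Figure D4:**
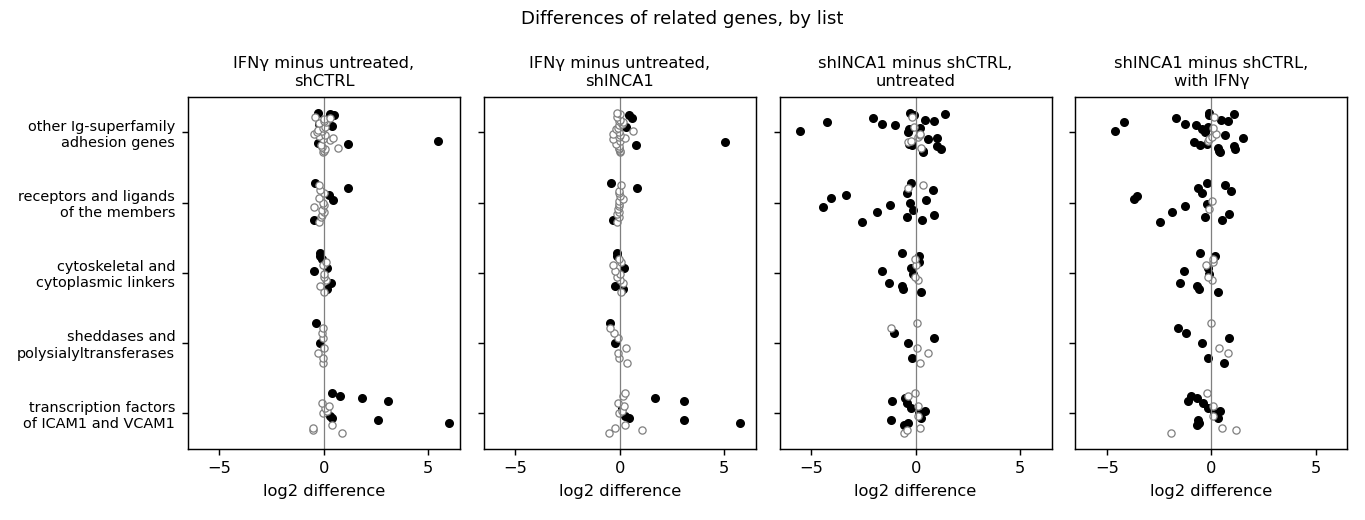
Log2 differences of the tested genes of the 5 lists of related genes in the 4 comparisons of groups, filled where the gene passed the threshold; genes near the floor are left out. For IFNγ most points lie near 0, and those far to the right include IRF1, IRF9, STAT2 and CEACAM1. Between the lines LSAMP, ITGB3, LAMA4 and NEGR1 are among the lowest points.

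For each member the 3 tested genes with the most alike pattern over the 12 libraries were found by the root mean square difference of centred log2 CPM. They were MDGA1 (0.943), IFI44L (1.07) and C1R (1.08) for ICAM1, and they included LRRTM2 (0.813) and PCDH17 (1.24) for VCAM1. For L1CAM they were LY6K (0.0891), DKK1 (0.102) and MYO1D (0.140), and for NCAM1 they were FAM8A1 (0.0719), NBPF1 (0.0756) and KIAA0232 (0.0762). For MCAM they included FAM69A (0.0997) and TRIM2 (0.109), and for ALCAM they were SKA2 (0.0411), TPBG (0.0483) and FRG1 (0.0525). DKK1, a secreted WNT inhibitor, averaged 141.2, 150.3, 24.6 and 27.8 CPM in shINCA1 with IFNγ, shINCA1 untreated, shCTRL with IFNγ and shCTRL untreated. LRRTM2, a postsynaptic adhesion molecule, averaged 0, 0.0333, 16.2 and 0.862 CPM in these groups. The matches of ICAM1 and VCAM1 were less alike than those of the other members, and both members lay near the floor in shINCA1. PCDH17 averaged 34.6 CPM in shCTRL with IFNγ and 22.6 CPM in shCTRL untreated, a smaller rise than that of VCAM1.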

How the data were processed

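RNA of 12 U251 libraries in 4 groups of 3 was analysed, grouped by the sample titles. The deposited table holds estimated counts per gene symbol; its values are whole numbers, and rounding changed none. Low values fall on some numbers more often than on others (3 occurs 5790 times and 2 occurs 2186 times), so they may not be single reads. FastQC, Trimmomatic, HISAT2, StringTie and the hg19 build are named per the submitters' processing notes; the counting tool, annotation and strand use were not given in the sources used here.

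All 12 libraries were fitted together with edgeR 4.0.16 in R 4.3.3 (filterByExpr, TMM, glmQLFit, glmQLFTest, 1 coefficient per group), two-sided, with Benjamini-Hochberg adjustment over 15769 genes and a threshold of 0.05. Standard errors are the log2 difference divided by the root of F, and intervals are approximate. The common biological coefficient of variation was 10.6%. A group of at most 9 counts got the ratio of pooled counts with an exact 95% interval, and a group at 0 a bound at a floor of 3 counts per library. Of each list, up to 4 called genes of at least 1 CPM with the smallest p are named per comparison. A few genes that this rule, the likeness or the marker lists would name are not reported here. Likeness used log2 CPM with a prior count of 2 and genes of at least 1 CPM. The members and lists were chosen with earlier results of these data known. Alternatives were limma-voom (limma 3.58.1), DESeq2 1.42.0, other scaling and filters, a replicate block, the 2 groups alone, single libraries left out and a threshold of 0.01. Alternatives meant for FPKM or TPM had no use here and were not run.

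Cell type lists had this result, as genes at 1 CPM or more and summed CPM over libraries, in shINCA1 with IFNγ, shINCA1 untreated, shCTRL with IFNγ and shCTRL untreated. Of 7 endothelial genes it was 2, 3, 2 and 1, at 16.2 to 18.9, 11.4 to 12.8, 10.7 to 11.5 and 7.95 to 8.87 CPM, mostly KDR. Of 7 haematopoietic genes it was 1 in each, CD68, at 9.83 to 14.5 CPM in all. Of 5 neuronal genes it was 2, 2, 2 and 3, at 18.1, 15.6 to 17.2, 10.4 to 11.8 and 8.34 to 10.7 CPM. Of 5 epithelial genes it was 3, 3, 2 and 2, at 268.9 to 270.2, 240.9 to 263.7, 90.4 to 95.7 and 93.5 to 96.6 CPM. Of 6 pericyte and fibroblast genes it was 4 in each, at 29.0 to 42.3 CPM in all. The 8 glial and glioma genes summed to 3006 to 3068, 3024 to 3063, 3512 to 3642 and 3636 to 3764 CPM.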

Additional observations from a re-analysis of the deposited data

Results flagged for a closer look

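CD47, an immunoglobulin-type adhesion gene outside the 6 members, responded differently to IFNγ in the lines by the test of the difference itself. The response in shINCA1 less that in shCTRL was -0.37 ± 0.07 on the log2 scale (SE; edgeR quasi-likelihood test, adjusted p = 0.0226). CD47 averaged 75.6 ± 4.77 CPM with IFNγ and 43.3 ± 1.40 CPM untreated in shINCA1, and 109.2 ± 1.23 CPM with IFNγ and 48.4 ± 2.68 CPM untreated in shCTRL (SD, n = 3 each). The call was lost in 10 of 20 alternatives, 9 of which left out a single library (any but the first untreated shINCA1 library, the third shINCA1 library with IFNγ and the third untreated shCTRL library), with values of -0.44 to -0.31 and adjusted p of 1.11e-04 to 0.0799. By edgeR CD47 was the 1 gene called of the 31 tested in its list, where 1.71% of all tested genes were. None was called in the other lists of related genes, where DESeq2 called 1 transcription factor as raised and 1 as lowered.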

How the results depend on the processing

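Over 30 results of the members, 616 alternatives were run. Of these, 609 kept their side of the threshold, 6 lost the call, 1 gained it and 0 reversed a call. Results called in neither fit could change direction, as ALCAM with IFNγ in shCTRL did (log2 -0.052 to 0.055 without single libraries). For the lost or moved ones the cause was not tested unless the setting shows it. At a threshold of 0.01 ICAM1 with IFNγ in shCTRL (3.99) and MCAM with IFNγ in shINCA1 (-0.38) were no longer called, and MCAM was not called in the 2 groups alone (-0.38). Leaving out single libraries gave 3.45 to 5.54 for ICAM1 (not called at 3.69, without the first shCTRL untreated library), -0.48 to -0.29 for MCAM, and adjusted p of 0.0121 to 0.205 for VCAM1 with IFNγ in shINCA1 (0.0121 without the third shINCA1 library with IFNγ, where both groups still lay near the floor). Less the median of neighbouring genes, the differences between lines were -0.31 and -0.37 for NCAM1, 2.35 for untreated L1CAM, and -0.19 and -0.058 for ALCAM. Genes lowered by IFNγ numbered 195 at 0.01, 733 by DESeq2 and 733 with upper-quartile factors in shINCA1, with 281 to 481 without single libraries (281 without the third untreated shINCA1 library), and 605 at 0.01 and 1970 with upper-quartile factors in shCTRL. Genes whose responses differed numbered 42 raised and 71 lowered at 0.01, 178 and 332 by DESeq2, and 57 to 92 and 95 to 154 without single libraries (57 without the third shINCA1 library with IFNγ, 95 without the third untreated shINCA1 library). Replicate numbers showed no pairing that held over all pairs of groups. Deviations of same-numbered libraries correlated at -0.0648 to 0.278, and of 6 libraries per pair of groups 0 to 4 were closest to their own number. The untreated groups of the lines had the 4, with correlations of 0.0482 to 0.278, so pairing there was not settled. With the replicate block, no call of a member changed, and IFNγ raised 943 and lowered 432 genes in shINCA1 and raised 1509 and lowered 1125 in shCTRL. The 75 results for named genes of the lists had 1574 alternatives, of which 1536 kept their call, 38 lost it and 0 reversed. Calls were lost for 9 results, with adjusted p up to 0.134 for ANK1, 0.0739 for VCL and 0.0621 for NRP1 with IFNγ in shINCA1, 0.124 for MMP14 and 0.0570 for LAMA4 with IFNγ in shCTRL, and 0.0724 for ADAM10 between lines with IFNγ. ICAM1 and VCAM1 held 0 to 9 counts per library in shINCA1, so differences there that lie within the count intervals were not detectable.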
